A study of Mus musculus with 6 samples.

Results

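The genes described here are 43 genes of the interferon response and of antigen presentation by MHC class I, out of 24503 gene symbols in the count table. They were chosen by gene symbol from a list of names, without use of their counts in the choice rule, and all 43 symbols were found. They fall into 14 regulators (RNA sensors, transcription factors and signalling modifiers), 20 antiviral effectors and 9 genes of the MHC class I pathway. RNA-seq counts came from primary neural stem cells of the cortex of E13.5 mouse embryos, grown on laminin with FGF and EGF. The knockout cells carried Nestin-Cre (the Tg(Nes-cre)1Kln transgene) together with Phf2 flox/flox alleles (KO, 3 libraries). The control cells carried the same Phf2 flox/flox alleles without the Cre transgene (WT, 3 libraries), so the floxed alleles are common to both groups and the Cre transgene is present in KO alone. Nestin-Cre is active in neural progenitors, and a WT group with Cre and no floxed allele was not analysed here. The comparison asks how RNA levels differ in these cells after deletion of Phf2, the gene of a histone H3 lysine 9 demethylase.

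Type I and type II interferons are secreted signals that bind receptors on the cell surface and act through JAK kinases and STAT and IRF transcription factors. Their target genes encode sensors of foreign RNA, proteins that block viruses at many steps, and the machinery that cuts proteins into peptides, carries the peptides into the endoplasmic reticulum and shows them on MHC class I at the cell surface. Many of these genes have a basal level in cells that have met no virus, and class I expression is known to be low in neural cells compared with most other tissues.

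Library totals ranged from 33413444 to 42503715 counts in KO and from 39120340 to 46890314 counts in WT. Phf2 had 2315, 2041 and 1640 counts in KO 1, 2 and 3, against 4996, 3647 and 3670 counts in WT 1, 2 and 3. No KO library reached a WT library. Scaled to library size (CPM), Phf2 was at 56.3, 48.1 and 48.8 in KO and 109, 90.4 and 77.8 in WT, in that order. Phf2 RNA was thus lower in KO but not absent. The libraries numbered 1 stood apart from the others in both groups, with 7879 of 13683 tested genes differing between number 1 and numbers 2 and 3, and the pair KO 2 and KO 3 had a median chi-square per gene of 1.03, where other replicate pairs had 5.41 to 34.5 and counting alone gives 0.455. Fits with the replicate number as a block are therefore set beside the fit without it. Of 8 neural stem cell markers all were above the filter on low counts, and Sox2 averaged 537 CPM (counts scaled to library size) in KO and 466 CPM in WT. Of 12 microglia and macrophage markers, 7 (Aif1, C1qa, C1qb, C1qc, Ptprc, Tyrobp and Trem2) had 0 counts in every library. The summed level of the list was 0.731 to 1.22 CPM in KO and 0.421 to 0.804 CPM in WT. Most of it was P2ry12, with means of 0.89 CPM in KO and 0.568 CPM in WT.

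Ranked by CPM per kilobase of exon, the highest levels of the 43 genes were those of B2m, the light chain of every class I molecule (79.5 in KO and 93.4 in WT), and H2-K1, a class I heavy chain (22.6 in KO and 25.4 in WT). Tapbp, the tapasin that bridges class I to the peptide transporter, followed in KO with 13.0 CPM per kilobase and had 13.7 in WT. Bst2, the tetherin that holds budding virus at the membrane, had 12.3 in KO and, above Tapbp, 17.5 in WT. Isg15 and Ifit1 were far lower on the same scale. Isg15, a ubiquitin-like modifier, stood at 0.592 CPM per kilobase in KO and 1.06 in WT. Ifit1, which binds viral RNA caps, stood at 0.138 CPM per kilobase in KO and 0.271 in WT. Summed over each class, antiviral effectors had 198.1 to 209.3 CPM in KO and 201 to 220.2 CPM in WT, and regulators had 110.6 to 140.2 CPM in KO and 112.8 to 160.6 CPM in WT.

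Of the 43 genes, 41 passed the filter on low counts and were tested. The RNA sensor gene Zbp1 had 3 counts in WT 1 and 0 counts in the other 5 libraries, and a count of 0 allows up to 3 counts, which is 0.0636 to 0.0892 CPM depending on the library. Mx1, a dynamin-like antiviral GTPase, had 0, 1 and 3 counts in KO 1, 2 and 3 and 1, 2 and 3 counts in WT 1, 2 and 3. The interferons themselves were at the floor. Of 9 interferon genes looked up, 8 (Ifnb1, Ifna1, Ifna2, Ifna4, Ifne, Ifng, Ifnl2 and Ifnl3) had 0 counts in all 6 libraries, and Ifnk had 3 counts in KO 2 and 0 elsewhere.

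The start regions of several of these genes carry the interferon-stimulated response element (ISRE), the site bound by the complex of STAT and IRF proteins. Its core GAAANNGAA was searched on both strands in the RefSeq windows from 250 bases before to 50 bases after each gene start (GRCm38.p6), and 34 of the 43 genes had a window. A match was present for 16 of these 34 genes (47.1%), against 2638 of all 27025 genes with a window (9.76%). By class, it was present for 11 of 17 antiviral effectors, 4 of 9 regulators and 1 of 8 class I genes (B2m). The core TTCNNNGAA of the gamma-activated site, which reads the same on both strands, was present for 8 of the 34 genes (23.5%) and for 9.55% of all genes, and some windows hold both motifs. A match describes letters and does not show binding. Sites that depart from these cores or lie outside the windows were not counted, so a missing match does not show that a site is absent. Of the 7 genes called lower with the replicate block below, Lgals3bp, Oasl2 and Tap1 had no ISRE match and Tap2 had no window. Trim25, Bst2 and Gbp3 had a match, for Gbp3 in 1 window but not in the other. The genes shown next were picked among those with a match. The 250 bases before the start are shown for the regulator with the lowest p in the genotype comparison (Trim25), for 3 effectors described below (Gbp3, Isg15 and Ifit1) and for B2m, 5′ to 3′ on the strand of the gene, with matches to the ISRE core in capitals (matches on the opposite strand appear as the reverse complement, and overlapping matches run together):
Trim25, chr11:88999153-88999402, plus strand: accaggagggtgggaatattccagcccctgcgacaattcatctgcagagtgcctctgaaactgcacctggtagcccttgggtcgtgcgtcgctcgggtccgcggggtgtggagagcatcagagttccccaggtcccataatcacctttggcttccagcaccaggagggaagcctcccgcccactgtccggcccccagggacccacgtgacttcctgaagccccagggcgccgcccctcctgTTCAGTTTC
Gbp3, chr3:142559794-142560043, plus strand: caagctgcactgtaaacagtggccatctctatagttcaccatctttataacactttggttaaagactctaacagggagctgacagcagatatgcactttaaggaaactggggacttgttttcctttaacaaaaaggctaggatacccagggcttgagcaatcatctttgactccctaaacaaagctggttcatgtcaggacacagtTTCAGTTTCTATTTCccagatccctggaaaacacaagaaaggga
Isg15, chr4:156200819-156201068, minus strand: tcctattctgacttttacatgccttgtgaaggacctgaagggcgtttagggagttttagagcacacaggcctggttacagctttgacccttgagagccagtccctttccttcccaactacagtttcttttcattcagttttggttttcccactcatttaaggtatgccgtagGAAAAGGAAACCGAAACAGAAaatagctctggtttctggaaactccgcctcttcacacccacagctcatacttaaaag
Ifit1, chr19:34640639-34640888, plus strand: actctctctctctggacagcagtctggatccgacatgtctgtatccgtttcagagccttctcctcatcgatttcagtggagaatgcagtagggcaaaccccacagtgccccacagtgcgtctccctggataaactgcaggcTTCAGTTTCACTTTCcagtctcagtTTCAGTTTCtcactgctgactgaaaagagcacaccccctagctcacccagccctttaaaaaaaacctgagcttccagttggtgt
B2m, chr2:122147437-122147686, plus strand: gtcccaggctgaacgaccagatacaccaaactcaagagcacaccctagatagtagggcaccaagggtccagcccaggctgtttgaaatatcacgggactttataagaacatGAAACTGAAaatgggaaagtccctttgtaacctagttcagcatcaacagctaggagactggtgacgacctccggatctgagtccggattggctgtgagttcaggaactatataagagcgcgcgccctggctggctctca
The match nearest the start began 9 bases before it in Trim25, 38 bases in Gbp3, 66 bases in Isg15, 84 bases in Ifit1 and 139 bases in B2m.

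Between genotypes, most interferon response genes lay slightly lower in KO. How many passed as lower in edgeR depended on the block, with 0 without a block and 7 with the replicate number as the block. In bulk RNA, fewer cells of a type and less RNA per cell cannot be told apart. Of the 41 genes, 33 had a log2 fold change of KO over WT below 0 and 8 above 0, with a median of −0.235, while 48.7% of all 13683 tested genes were below 0 and their median was 0.005. Without a block 0 of the 41 genes passed edgeR's quasi-likelihood test (adjusted p under 0.05 is termed called), where 0.0585% of all genes were called in either direction. An unadjusted p under 0.05 was found for 5 of the 41 and for 795 of all 13683 tested genes. DESeq2 called 2 lower without a block, Trim25 and Lgals3bp, where it called 198 of 13679 genes lower. With the replicate number as a block 7 fell and 0 rose, that is 17.1% lower, where 6.46% of all genes were called lower and 3.33% higher. The 7 were Trim25, Lgals3bp, Tap2, Gbp3, Oasl2, Tap1 and Bst2. With number 1 against the rest as the block, Ddx58 was called and Bst2 was not (edgeR, adjusted p = 0.0513). With KO 2 and KO 3 summed and that block, only Trim25 and Lgals3bp were called, where 530 of 13930 genes were called lower. Within each replicate number the share of genes lower in KO was 30 of 41 for number 1 (all tested genes 49.9%), 34 of 41 for number 2 (46.1%) and 32 of 41 for number 3 (52.9%). The median of the 41 genes without a block depended on the libraries in the fit, from −0.417 without WT 1 to −0.03 without KO 1. The part of number 1 in this range was not tested.

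**Figure D1:**
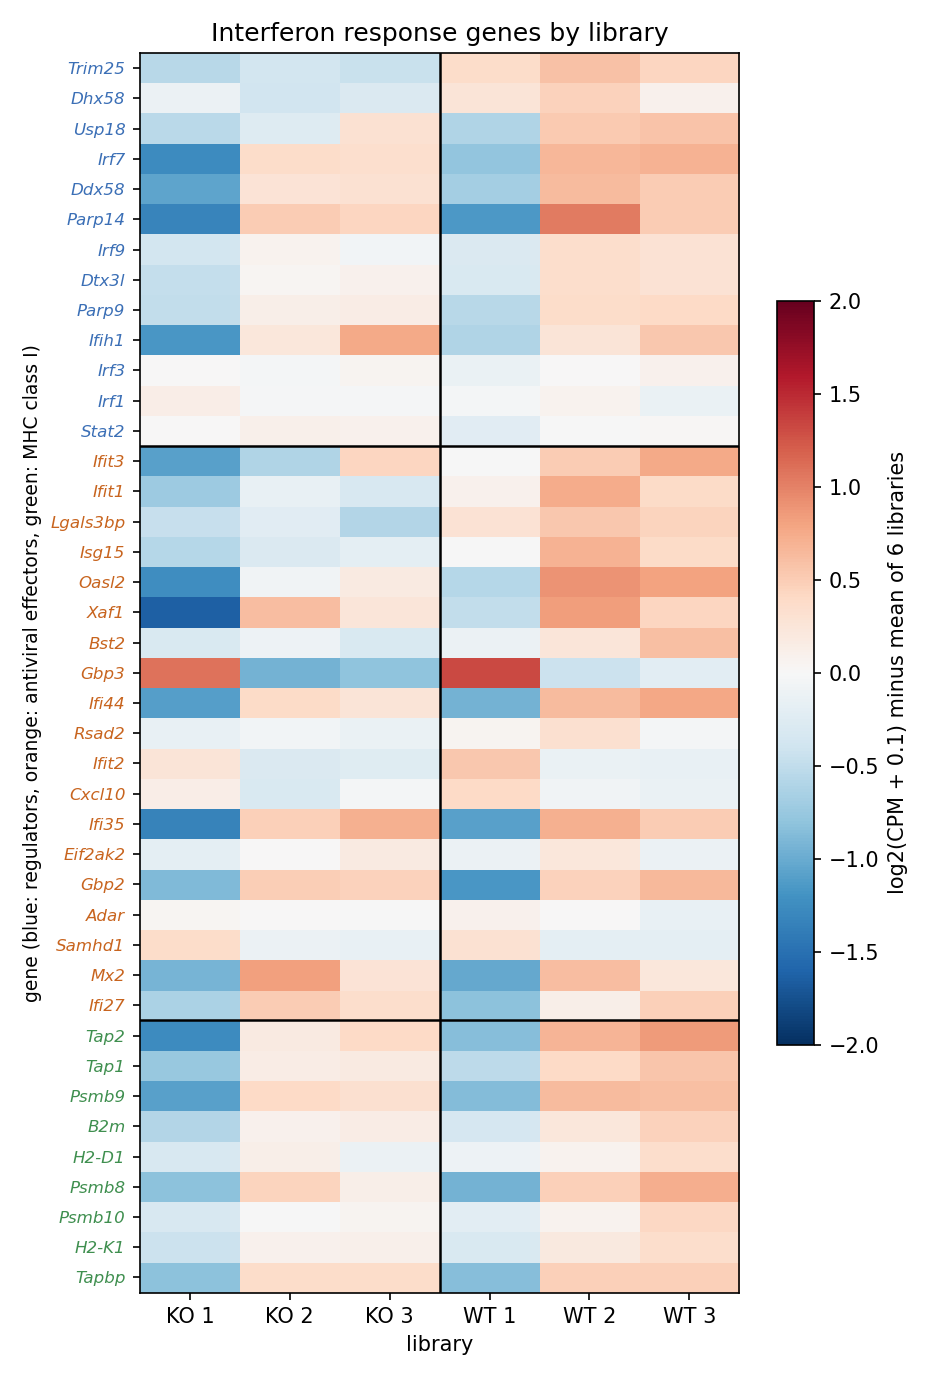
Level of each of the 41 tested genes (rows, by class) in each library (columns, KO left of WT), as log2(CPM + 0.1) minus the mean of the gene over the 6 libraries. Rows such as Trim25 and Lgals3bp are lower in all 3 KO libraries, while in most class I rows KO 1 and WT 1 are the low columns.

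For 6 of the 41 genes (14.6%), the groups did not overlap and KO was the lower one, where 6.71% of all tested genes showed this order. They were Trim25, Dhx58, Lgals3bp, Isg15, Ifit1 and Rsad2. The opposite order, with KO the higher one, was found for 0 of the 41 genes and for 4.49% of all genes.

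Among the regulators, Trim25 stood out. TRIM25 is a ubiquitin ligase that acts in signalling from the RNA sensor RIG-I and also conjugates ISG15. Trim25 (chromosome 11, 88999376 to 89020293, plus strand, GRCm38) was measured at 6.91, 7.90 and 7.49 CPM in KO 1, 2 and 3, against 13.2, 15.4 and 13.8 CPM in WT 1, 2 and 3. The KO values were near one another and all lay well under the lowest WT value, with means of 7.43 ± 0.497 CPM in KO and 14.1 ± 1.14 CPM in WT (SD, n = 3 each). The log2 fold change was −0.93 ± 0.136 (SE) without a block, with adjusted p = 0.128, and −0.93 ± 0.0986 with it, with adjusted p = 0.000357 (edgeR quasi-likelihood, Benjamini-Hochberg). In numbers 2 and 3 alone, without a block, it was −0.92 with adjusted p = 0.0104, and the ratio within number 1 was −0.93 on the log2 scale.

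The other regulators did not pass in either fit. Dhx58, which encodes LGP2, an RNA helicase that modulates RIG-I-like sensors, had 0.779, 0.637 and 0.684 CPM in KO 1, 2 and 3, against 1.04, 1.21 and 0.911 CPM in WT 1, 2 and 3. All KO values were lower, but the gene had 23 to 49 counts in a library, and its log2 fold change of −0.59 ± 0.266 had adjusted p = 0.213 with the block. Ddx58, the RIG-I gene itself, had 6.33, 15.9 and 16.3 CPM in KO 1, 2 and 3, against 8.24, 20.6 and 18.9 CPM in WT 1, 2 and 3. Each KO library was lower than the WT library of its number, and the change of −0.32 ± 0.0931 had adjusted p = 0.0588 with the block, and passed with number 1 against the rest as the block. Irf9, the DNA-binding part of the complex that STAT proteins form after interferon, had 9.61, 13 and 12 CPM in KO 1, 2 and 3, against 10.1, 15.8 and 15.2 CPM in WT 1, 2 and 3. The groups overlapped, with a change of −0.24 ± 0.0992 and adjusted p = 0.179 with the block.

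The abundant factors of the pathway were nearly level. Irf3, the transcription factor that sensors activate first, had 35.8, 34.7 and 37.0 CPM in KO 1, 2 and 3, against 32.2, 35.8 and 37.8 CPM in WT 1, 2 and 3. Stat2, the partner of IRF9, had 22.3, 23.7 and 23.3 CPM in KO 1, 2 and 3, against 18.9, 22 and 22.5 CPM in WT 1, 2 and 3. With the block the log2 fold changes were 0.03 ± 0.0758 for Irf3 (adjusted p = 0.87) and 0.13 ± 0.0804 for Stat2 (adjusted p = 0.369), and the sign for Irf3 turned under upper-quartile scaling (−0.003). Irf1, a factor of both interferon types, had a change of 0.06 ± 0.105 with the block. The remaining 6 tested regulators, Irf7, Ifih1, Usp18, Parp9, Dtx3l and Parp14, had changes from −0.41 (Usp18, which removes ISG15 from proteins) to −0.08 (Ifih1, the sensor MDA5) with the block. Parp9 and Dtx3l, partners in an ADP-ribosylation and ubiquitin ligase complex, lie head to head on chromosome 16 and overlap in the annotation (Parp9 starts at 35938470 and Dtx3l ends at 35939151), so reads there cannot be told apart without strand.

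**Figure D2:**
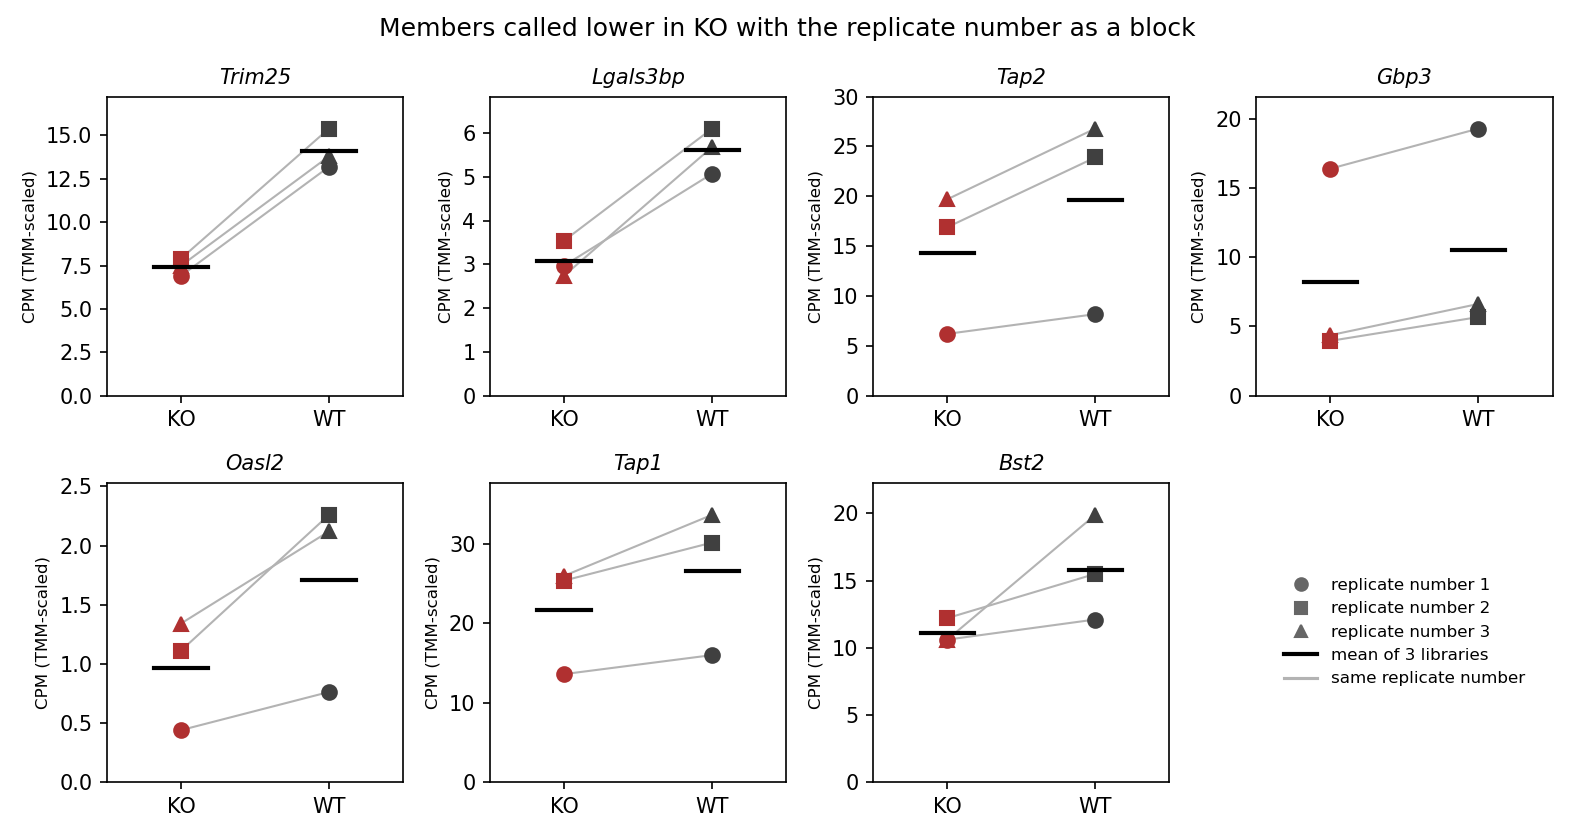
CPM in each KO library (left, red) and WT library (right, grey) of the 7 genes called lower in KO with the replicate number as a block; lines join libraries of 1 number and bars are means of 3 libraries. In each panel all 3 lines run lower at the KO end, but for Tap2, Tap1, Gbp3 and Oasl2 the distance between number 1 and the other numbers exceeds the distance between the groups.

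Among the antiviral effectors, Lgals3bp, Oasl2, Bst2 and Gbp3 fell in the fit with the block. Lgals3bp encodes a secreted glycoprotein that binds galectins and is induced by interferon. It had 2.97, 3.54 and 2.74 CPM in KO 1, 2 and 3, against 5.07, 6.10 and 5.68 CPM in WT 1, 2 and 3. No KO library reached the lowest WT library, and the log2 fold change was −0.86 ± 0.188 without a block (adjusted p = 0.27) and −0.87 ± 0.137 with it (adjusted p = 0.00345). It was also called in numbers 2 and 3 alone (−0.90, adjusted p = 0.0386), where 2 of the 41 genes, Lgals3bp and Trim25, were called lower and 3.57% of all genes were. With the counts of KO 2 and KO 3 summed and number 1 as the block, the same 2 genes were called.

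Oasl2, a relative of the oligoadenylate synthetases that sense double-stranded RNA, had 0.438, 1.11 and 1.34 CPM in KO 1, 2 and 3, against 0.761, 2.26 and 2.12 CPM in WT 1, 2 and 3. Number 1 was the low library in both groups, so KO 2 and KO 3 lay above WT 1 and the groups overlapped. The change was −0.83 ± 0.226 with the block, with adjusted p = 0.046, and −0.83 ± 0.566 without it, with adjusted p = 0.999. Bst2 had 10.6, 12.2 and 10.6 CPM in KO 1, 2 and 3, against 12.1, 15.5 and 19.9 CPM in WT 1, 2 and 3. Every KO library was lower than the WT library of its number, the largest gap was in number 3, and the change of −0.48 ± 0.133 stood at adjusted p = 0.0495 with the block. Gbp3, a guanylate-binding protein gene of cell-autonomous defence, had 16.4, 3.96 and 4.37 CPM in KO 1, 2 and 3, against 19.3, 5.68 and 6.63 CPM in WT 1, 2 and 3. Here number 1 was the high library in both groups, the change was −0.43 ± 0.116 with the block (adjusted p = 0.0445), and leaving out WT 1 from the fit without a block turned the sign to 0.44. With the block and any 1 replicate number left out, Oasl2, Gbp3 and Tap1 were no longer called, while Trim25 and Lgals3bp were called each time. Bst2 lost its call without number 3, and Tap2 without number 2 (adjusted p = 0.0585).

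Isg15, Ifit1 and Ifit3 had few reads, and their fold changes did not pass in either fit. Isg15 had 15, 20 and 17 counts in KO 1, 2 and 3, against 27, 41 and 38 counts in WT 1, 2 and 3, or 0.447 ± 0.0733 CPM in KO and 0.803 ± 0.215 CPM in WT (SD, n = 3 each). Ifit1 had 11, 19 and 13 counts in KO 1, 2 and 3, against 25, 37 and 33 counts in WT 1, 2 and 3, or 0.367 ± 0.0917 CPM in KO and 0.72 ± 0.188 CPM in WT. For both genes the highest KO library was below the lowest WT library. The log2 fold changes with the block were −0.83 ± 0.305 for Isg15 (adjusted p = 0.125) and −0.97 ± 0.319 for Ifit1 (adjusted p = 0.09), and without it adjusted p was 0.838 and 0.775. Ifit3, a partner of Ifit1, had 5, 9 and 18 counts in KO 1, 2 and 3, against 17, 23 and 33 counts in WT 1, 2 and 3, with a change of −0.99 ± 0.40 and adjusted p = 0.163 with the block. Rsad2, which encodes viperin, a radical SAM enzyme that makes a chain-terminating nucleotide, had a mean of 1.90 ± 0.0699 CPM in KO and 2.23 ± 0.307 CPM in WT, and did not pass (−0.23 ± 0.177).

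The effectors with the highest CPM were level between genotypes. On the scale of CPM per kilobase of exon, Bst2, which was called lower with the block, stood above them. Adar, which edits adenosines in double-stranded RNA, had 57.9, 56.6 and 56.1 CPM in KO 1, 2 and 3, against 59.7, 56.5 and 50.6 CPM in WT 1, 2 and 3. Samhd1, which depletes nucleotides needed by viruses, had 65.1, 46.7 and 45.6 CPM in KO 1, 2 and 3, against 63.0, 44.2 and 44.1 CPM in WT 1, 2 and 3. Eif2ak2, the kinase PKR that halts translation, averaged 42.6 ± 5.43 CPM in KO and 42.6 ± 6.04 CPM in WT. The changes with the block were 0.04 ± 0.0699 for Adar, 0.06 ± 0.0661 for Samhd1 and 0.00 ± 0.0972 for Eif2ak2, and the signs for Adar and Samhd1 turned when a library was left out (to −0.035 for Adar without WT 3 and −0.127 for Samhd1 without KO 1). Of the remaining effectors, Ifit2, Ifi35, Ifi44, Xaf1 and Cxcl10 had changes from −0.52 (Xaf1, 1 to 24 counts a library) to −0.08 (Ifi35) with the block, and Mx2, Ifi27 and Gbp2 had changes of 0.13, 0.15 and 0.01. In GENCODE vM21, Mx2 is annotated as a polymorphic pseudogene.

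All 9 genes of the MHC class I pathway had log2 fold changes below 0, from −0.45 to −0.06 with the block, with a median of −0.218 (0.007 for all tested genes). Of the 9, 2 were called lower with the block, where 6.46% of all genes were, and both encode the peptide transporter. Tap2 had 6.2, 16.9 and 19.7 CPM in KO 1, 2 and 3, against 8.18, 23.9 and 26.8 CPM in WT 1, 2 and 3. Tap1, the partner chain of the transporter, had 13.6, 25.4 and 26.0 CPM in KO 1, 2 and 3, against 16.0, 30.2 and 33.7 CPM in WT 1, 2 and 3. In both genes each KO library was lower than the WT library of its number, while WT 1 lay under KO 2 and KO 3. The changes with the block were −0.45 ± 0.0864 for Tap2 (adjusted p = 0.00917) and −0.29 ± 0.0782 for Tap1 (adjusted p = 0.0473), and without it adjusted p was 0.999 for both. Neither was called in numbers 2 and 3 alone (adjusted p = 0.0638 for Tap2 and 0.0943 for Tap1).

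The chains of the class I molecule and the immunoproteasome genes were not called in either fit. B2m had 48.0, 77.1 and 80.1 CPM in KO 1, 2 and 3, against 57.3, 84.3 and 99.3 CPM in WT 1, 2 and 3, with a change of −0.23 ± 0.0672 and adjusted p = 0.0588 with the block. H2-K1 had 51.5, 73.7 and 74.1 CPM in KO 1, 2 and 3, against 56.4, 79.0 and 88.7 CPM in WT 1, 2 and 3, with a change of −0.16 ± 0.0668 (adjusted p = 0.169). For B2m and H2-K1 every KO library was lower than the WT library of its number, with log2 ratios from −0.31 to −0.10. H2-D1, the second classical heavy chain, had 20.4, 27.5 and 23.4 CPM in KO 1, 2 and 3, against 23.8, 26.7 and 32.5 CPM in WT 1, 2 and 3, with KO 2 above WT 2. H2-K1 and H2-D1 are similar in sequence, so reads may have been divided between them, and with their counts summed neither fit called them. Psmb10, an immunoproteasome subunit that replaces a constitutive one, had 14.7, 18.3 and 19.0 CPM in KO 1, 2 and 3, against 15.9, 19.3 and 24.5 CPM in WT 1, 2 and 3 (−0.18 ± 0.0913, adjusted p = 0.26). Psmb8, Psmb9 and Tapbp had changes of −0.21, −0.29 and −0.06 with the block.

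**Figure D3:**
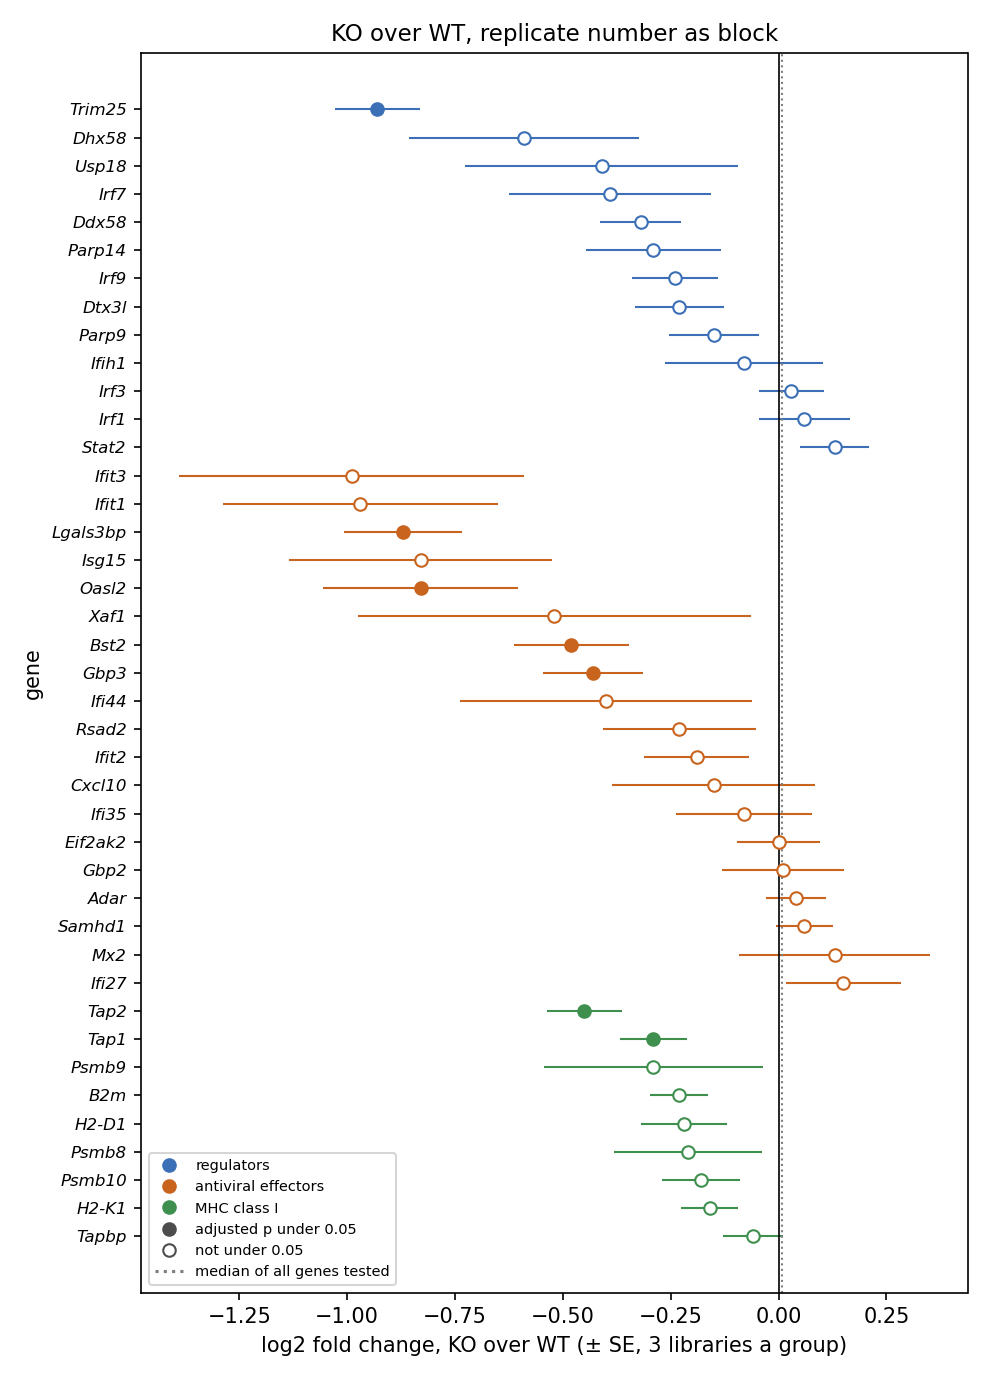
Log2 fold change of KO over WT in the fit blocked on replicate number (horizontal axis, ± SE, 3 libraries a group) for the 41 tested genes, ordered within each class; filled points have an adjusted p under 0.05 and the dotted line is the median of all tested genes. Filled points lie between −0.93 (Trim25) and −0.29 (Tap1), and no filled point lies above 0.

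Of the class I genes, 7 lie together in the MHC region of chromosome 17 (GRCm38), from Tapbp at 33915899 to H2-D1 at 35267499, while B2m is on chromosome 2 and Psmb10 on chromosome 8. Psmb9 and Tap1 start back to back within the region, and their annotated ends overlap (Tap1 starts at 34187553 and Psmb9 ends at 34187764). Their counts were far apart, 14, 48 and 36 for Psmb9 and 559, 1077 and 876 for Tap1 in KO 1, 2 and 3, against 19, 55 and 63 for Psmb9 and 735, 1218 and 1589 for Tap1 in WT 1, 2 and 3.

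A list of other signalling genes of the pathway gave other values. Its 23 genes included receptors, kinases, adaptors, transcription factors such as Irf2 and Stat3, phosphatases and feedback inhibitors, and 22 were tested. The unblocked edgeR fit called 0, and 1 had an unadjusted p under 0.05, as did 795 of all 13683 tested genes. With the block 2 rose and 0 fell, where 3.33% of all genes were called higher and 6.46% lower. The median with the block was 0.075, against 0.007 for all tested genes. Ifngr1, a chain of the receptor for interferon gamma, averaged 35.4 CPM in KO and 28.4 CPM in WT, with a change of 0.32 ± 0.0791 (adjusted p = 0.0331). Socs3, a feedback inhibitor of JAK kinases, had 536, 6993 and 5520 counts in KO 1, 2 and 3, against 563, 3866 and 4633 counts in WT 1, 2 and 3, with a change of 0.57 ± 0.121 (adjusted p = 0.0207). Ifnar1, a chain of the type I receptor, averaged 113 CPM in KO and 107 CPM in WT and did not pass (0.09 ± 0.0607). Another list held 16 further genes of the class I pathway, for loading, protein cutting, other heavy chains such as H2-T23 and the regulator Nlrc5. Of the 16, 15 were tested and edgeR called 0 without or with the block. An unadjusted p under 0.05 was found for 0 of the 15 in either fit. Psmb5, Psmb6 and Psmb7, the constitutive subunits that the immunoproteasome subunits replace, averaged 115, 177 and 182 CPM in KO and 119, 183 and 182 CPM in WT.

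Of 5 astrocyte markers, 3 were called lower in KO with the block, as the 7 genes above were. The summed level of the 5 was 62.6 to 154 CPM in KO and 162 to 408 CPM in WT. KO 1 (62.6 CPM) and WT 1 (162 CPM) were the lowest of their groups, and no marker was at 0. Aldh1l1, Gfap and Slc1a2 fell in the fit with the block, where 6.46% of all genes were called lower. Without the block edgeR gave them adjusted p = 0.0782, 0.999 and 0.489. Aqp4 (0.00 ± 0.113) and S100b (−0.21 ± 0.141) were not called with the block. Of 7 pericyte and fibroblast markers, with a summed level of 1.02 to 1.6 CPM in KO and 1.63 to 3.22 CPM in WT and Dcn at 0, 3 were tested and Col1a2 fell with the block (adjusted p = 0.00949, and 0.376 without it), at 5 to 9 counts in KO and 18 to 47 counts in WT. Of 7 endothelial markers 3 were tested and 0 called by edgeR in either fit, with a summed level of 1.72 to 2.38 CPM in KO and 1.88 to 2.57 CPM in WT and Cdh5 at 0. Of 6 neuron markers 5 were tested. Syt1, a synaptic vesicle gene, fell with the block (−0.93 ± 0.0797, adjusted p = 0.000112) and was not called without it (adjusted p = 0.988). The summed level of the 6 was 635 to 765 CPM in KO and 546 to 765 CPM in WT. Most of it was Map2, with means of 626 CPM in KO and 558 CPM in WT. Of the 8 neural stem cell markers, Hes5 rose with the replicate number as the block (0.32 ± 0.0687, adjusted p = 0.0161) and was not called without it (adjusted p = 0.999). With number 1 against the rest as the block 3 of the 8 were called higher, where 510 of 13683 genes were. The part of these cell types in the differences was not tested.

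The larger variation of the interferon response genes ran along the replicate numbers. With genotype held as a covariate, 24 of the 41 genes were lower and 3 higher in the libraries numbered 1 than in numbers 2 and 3, where 29.4% of all tested genes were lower and 28.2% higher. The median log2 fold change of number 1 over the others was −0.596 for the 41 genes and −0.015 for all genes. What the number stands for is not stated in the labels, and this comparison sets 2 libraries against 4. The summed level of the 9 class I genes was 181.9 CPM in KO 1 and 204.4 CPM in WT 1, against 303.0 and 305.2 CPM in KO 2 and KO 3 and 332.2 and 375.2 CPM in WT 2 and WT 3.

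All 9 class I genes were called lower in number 1, with a median of −0.96 on the log2 scale. Tapbp averaged 25.0 CPM in number 1 and 60.2 CPM in the others, a change of −1.27 ± 0.0673 (SE, adjusted p = 2.37e-06, edgeR). Tap2 averaged 7.19 CPM in number 1 and 21.8 CPM in the others (−1.60 ± 0.106), and Tap1 14.8 and 28.8 CPM (−0.96 ± 0.0808). The heavy and light chains changed by −0.32 ± 0.103 for H2-D1 to −0.70 ± 0.0776 for B2m, and the immunoproteasome genes Psmb8, Psmb9 and Psmb10 by −1.38, −1.69 and −0.40. Of 13 tested regulators 8 were lower and 0 higher. Parp14, a mono-ADP-ribosyltransferase, averaged 1.30 CPM in number 1 and 5.02 CPM in the others (−1.94 ± 0.202), Ddx58 7.28 and 17.9 CPM (−1.30 ± 0.0921) and Parp9 8.05 and 13.9 CPM (−0.79 ± 0.103).

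Of the 19 tested antiviral effectors, 7 (36.8%) were lower and 3 higher in this comparison, where 29.4% of all genes were lower and 28.2% higher. Gbp2 and Gbp3, neighbours on chromosome 3 and relatives in sequence, went opposite ways. Gbp2 averaged 1.97 CPM in number 1 and 5.89 CPM in the others (−1.58 ± 0.15), whereas Gbp3 averaged 17.9 CPM in number 1 and 5.16 CPM in the others (1.81 ± 0.115). Samhd1 (0.50 ± 0.0576) and Ifit2 (0.61 ± 0.107) were the other 2 higher effectors. Ifi35, an interferon-induced leucine zipper protein gene, averaged 1.35 CPM in number 1 and 4.99 CPM in the others (−1.88 ± 0.169). Trim25 and Lgals3bp, the 2 genes with the lowest p between genotypes, were not called between numbers (−0.15 ± 0.096 and −0.16 ± 0.142). Other features moved with the number as well, among them Gfap, an astrocyte filament gene (−4.52 ± 0.161), Hes5, a Notch target of neural progenitors (−3.71 ± 0.0777), Socs3 (−3.31 ± 0.145) and the progenitor filament gene Nes (1.24 ± 0.0642), and their part in the differences of the interferon response genes was not tested.

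**Figure D4:**
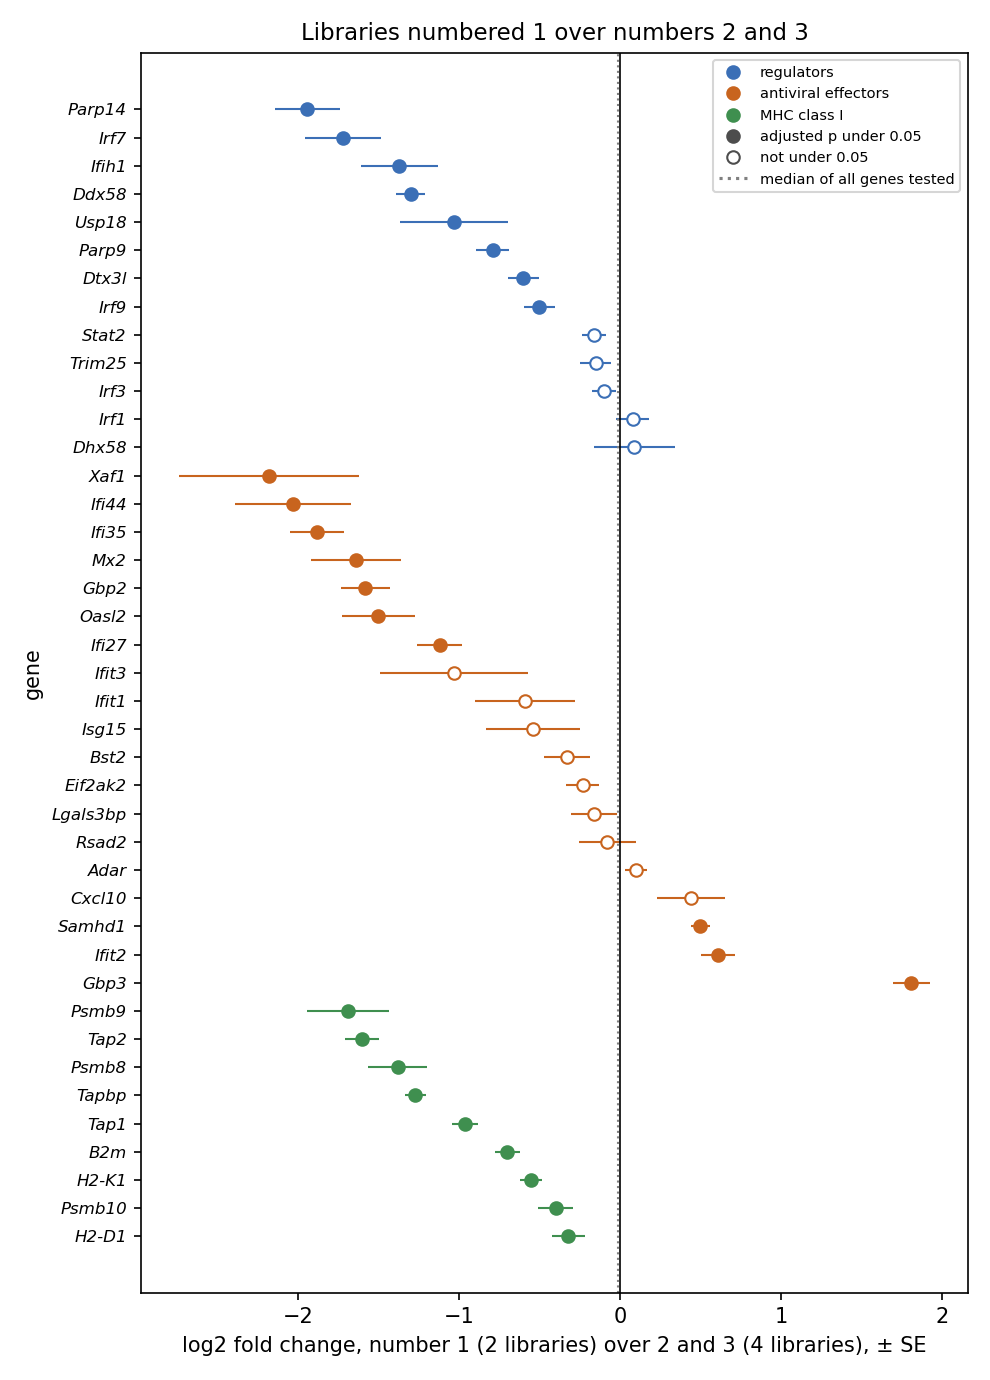
Log2 fold change of the libraries numbered 1 over those numbered 2 and 3 (horizontal axis, ± SE, 2 against 4 libraries, genotype as covariate) for the 41 tested genes by class; filled points have an adjusted p under 0.05. All 9 class I genes lie below 0 and are filled, from −1.69 (Psmb9) to −0.32 (H2-D1), and Gbp3 lies alone at 1.81.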

How the data were processed

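RNA-seq counts per gene symbol were taken as the authors deposited them, as raw whole numbers. Reads had been checked and trimmed (FastQC, cutadapt, Trim Galore) and processed with Bowtie2 and RSEM, with mm10 as genome build, per the submitters' processing notes. Tool versions, the annotation, the strand option and the step from RSEM estimates to whole counts were not given in the sources used here. Groups and replicate numbers came from the sample titles. The labels do not say that libraries came from separate embryos or cultures, so p-values reflect only how far these samples spread, and that spread may be technical.

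Counts were fitted in R 4.3.3 with edgeR 4.0.16: filterByExpr by group (13683 genes), TMM scaling, robust glmQLFit and glmQLFTest over all 6 libraries, two-sided, with Benjamini-Hochberg adjustment over all tested genes; genes with adjusted p under 0.05 are called. The SE was taken as the absolute log2 fold change over the root of F. Levels in CPM use TMM-scaled library sizes and are given with the SD over 3 libraries. The fits were tested on simulated data. Alternatives were the replicate number or number 1 as a block, subsets of libraries, other scalings, no filter and DESeq2 1.42.0. Totals of 33413444 to 46890314 counts a library put 1 count at 0.0212 to 0.0297 CPM, so genes with few counts are imprecise; limits from a count of 0 (3 counts) cover counting error only.

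KO and WT share replicate numbers. The correlation over genes of deviations from the group means was 0.854, 0.604 and 0.58 for the same-numbered pairs 1, 2 and 3. All were over 0.1, the limit used, and by this rule the numbers were treated as pairs. KO 3 with WT 2 (0.633) and KO 2 with WT 3 (0.578) were as high. With number 1 apart in both groups, numbers 2 and 3 passed the limit in either order. The values therefore do not show that 2 pairs with 2 or 3 with 3. The genes, classes, lists and alternatives were chosen with earlier results of these data known. Genes given in full were those called in either fit, the 4 of lowest p and the 2 of highest CPM in each class, and the 3 of lowest p in the comparison of numbers; other genes named singly, such as Ifit3, Rsad2, Eif2ak2 and Psmb9, were added after their values were seen. Positions and exon lengths come from GENCODE vM21 (GRCm38, the assembly named mm10), where all 43 symbols matched 1 gene. Promoter windows come from RefSeq on GRCm38.p6.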

Additional observations from a re-analysis of the deposited data

How the results depend on the processing

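Without a block, 0 of the interferon response genes were called by edgeR and 8 genes in all; with the replicate block 7 were called lower and 1340 genes in all, with number 1 as the block 7 and 1445, with numbers 2 and 3 alone 2 and 743, and with KO 2 and KO 3 summed and number 1 as the block 2 and 688. Summing KO 2 and KO 3 without a block gave 0 called genes (495 at an unadjusted p under 0.05) and a median of −0.31 for the interferon response genes, against −0.235. DESeq2 called 2 of them and 262 genes in all, and with the replicate block 4 and 1268. Upper-quartile scaling moved the median to −0.267 without the block (2 genes called higher and 4 lower in all, against 4 and 4) and to −0.259 with it, where 9 of them and 1310 genes in all were called. Leaving out 1 library without a block gave medians from −0.417 to −0.03, 0 to 21 called genes in all and 0 of the interferon response genes; 499 to 1352 genes then had an unadjusted p under 0.05. With the replicate block and 1 number left out, medians were −0.256, −0.212 and −0.257 without number 1, 2 and 3, with 4, 3 and 4 of them and 1037, 1248 and 1456 genes in all called.

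Signs turned for genes near 0: Irf3 (−0.037 in numbers 2 and 3 alone, −0.007 with upper-quartile scaling, −0.003 with that scaling and the block, −0.026 without WT 1, −0.037 with the block without number 1), Samhd1 (−0.028 without WT 2, −0.033 without WT 3, −0.127 without KO 1) and Adar (−0.035 without WT 3, −0.021 with the block without number 3), and for Gbp3 (0.44 without WT 1). With 1 library left out and no block, Irf3 ranged from −0.026 to 0.072, Samhd1 from −0.127 to 0.262, Adar from −0.035 to 0.099 and Gbp3 from −1.341 to 0.44. None of these was called in that setting; the cause was not tested. In the comparison of numbers, all genes called ranged from 5131 (without WT 1) to 9264 with 1 library left out, against 7879, called lower interferon response genes from 20 to 25, and their median from −0.642 to −0.56, and it was −0.649 with upper-quartile scaling, against −0.596. Without the filter on low counts, or with RLE scaling, the fit without a block again called 0 interferon response genes between genotypes. An unadjusted p under 0.05 was found for 4 and 5 of them, and for 889 of 17485 and 789 of 13683 genes in all. Neither setting was run with the block.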
